A study of Mus musculus with 4 samples.

Results

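Small leucine-rich proteoglycans are matrix proteins with a compact core of leucine-rich repeats, most of which carry chondroitin, dermatan or keratan sulfate chains. Their expression was described for 10 genes, Bgn, Dcn, Aspn, Lum, Fmod, Prelp, Kera, Omd, Ogn and Epyc, chosen by symbol and all found among the 25965 genes of the deposited table. The RNA came from cultured vascular smooth muscle cells (VSMCs), which contract the arterial wall. They were grown from the medial layer of aortas of male mice on the C57Bl/6 background (wild type, 8 to 14 weeks of age). Cells had been released with collagenase and elastase, grown in DMEM with serum and passaged 3 to 5 times before polyadenylated RNA was sequenced. All 4 libraries, numbered here 1 to 4 in the order of the labels, belonged to 1 group without a treatment or a control group. What could be measured was therefore how high each gene was, how genes differed within a library, and how far the libraries spread. The labels do not say whether the libraries came from separate mice or cultures, so p-values measure only the spread between these libraries, which may be technical.

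The libraries held 56265771, 55521915, 40342561 and 56793195 reads on genes, as recovered from the table. Of 8 smooth muscle markers 8 were detected, where detection required a log2 scaled read count of at least 0 (22 to 30 reads) in 4 of 4 libraries. Of the leukocyte markers 1 of 5 was detected and of the endothelial markers 3 of 5, while 10 of 10 adventitial fibroblast markers were. A level is a log2 scaled read count, and errors are the SD over the libraries (mean ± SD, n = 4). Scaling by median-ratio size factors instead shifted the median detected gene by -0.32, -0.10, 0.30 and 0.12 in libraries 1 to 4. A difference between libraries moves by the gap between their shifts, which is widest for libraries 1 and 3. Differences between libraries up to the size of that gap therefore depend on the scaling.

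The core proteins bind collagen fibrils and set their diameter and spacing, and several also bind growth factors of the TGF-beta family. By sequence and gene structure, Bgn (biglycan), Dcn (decorin) and Aspn (asporin) form class I, Lum (lumican), Fmod (fibromodulin), Prelp, Kera (keratocan) and Omd (osteomodulin) class II, and Ogn (osteoglycin, or mimecan) and Epyc (epiphycan) class III. Biglycan and decorin carry chondroitin or dermatan sulfate, and several class II members carry keratan sulfate chains or their unsulfated precursors. In arteries, biglycan is a main proteoglycan of the wall, and male mice without it are known for aortic rupture, while decorin is best known from the adventitia.

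Of the 10 genes all but Bgn lie in 3 clusters, which the choice of genes by name did not use. In the coordinates of the table (GRCm38), the chromosome 13 cluster holds Aspn (49544443 to 49567557), Omd (49582766 to 49592609) and Ogn (49608071 to 49624500), with gaps of 15.2 and 15.5 kb. The chromosome 10 cluster holds Dcn (97479500 to 97518162), Lum (97565501 to 97572703), Kera (97607205 to 97613688) and Epyc (97644068 to 97682454), with gaps of 47.3, 34.5 and 30.4 kb. On chromosome 1, Prelp (133910304 to 133921414) and Fmod (134037254 to 134048277) are 115.8 kb apart. In GENCODE M21 Prelp lies on the minus strand and the others on the plus strand. Bgn lies alone on the X chromosome (73483602 to 73495933). In GENCODE M21 the longest protein-coding transcript has 8 exons in each class I gene, 7 in each class III gene and 3 in Lum, Fmod, Prelp and Kera, against 4 in Omd.

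**Figure D1:**
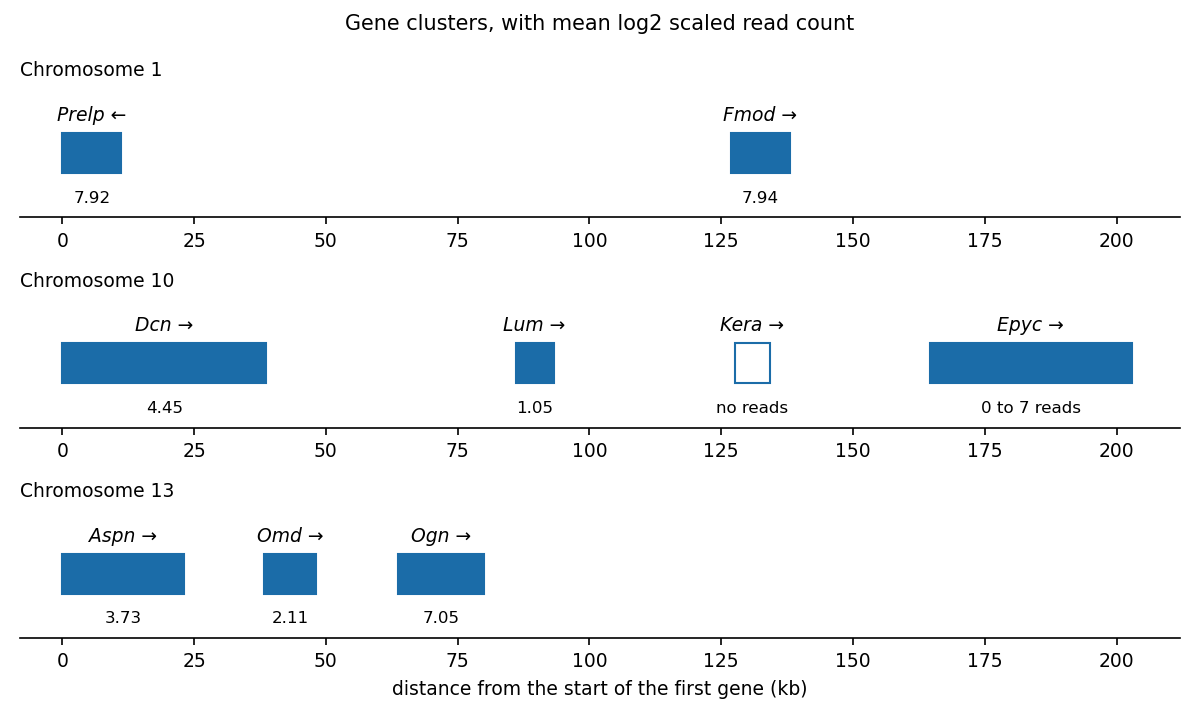
Gene clusters of the small leucine-rich proteoglycans, drawn to scale as distance from the start of the first gene in kb on the x axis, with arrows for the strand and the mean log2 scaled read count (n = 4) under each gene. Prelp at 7.92 and Fmod at 7.94 have like means, Ogn at 7.05 lies beside Omd at 2.11, and the chromosome 10 cluster runs from Dcn at 4.45 to Kera without reads.

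The 250 bases before the RefSeq start site are shown for Bgn, which had the highest level, and for the chromosome 13 cluster. The genes of that cluster were all lowest in library 2. RefSeq promoters (GRCm38.p6) were matched for 8 of the 10 genes, not for Dcn and Lum. All 4 are on the plus strand and written 5′ to 3′, and capitals mark matches on either strand to the TATA box letters TATAAA, the TEAD factor core GGAATG, the E-box letters CANNTG, the AP-1 site letters TGANTCA, the GC box letters CCGCCC or the CArG box of serum response factor.
Bgn, chrX:73483351-73483600: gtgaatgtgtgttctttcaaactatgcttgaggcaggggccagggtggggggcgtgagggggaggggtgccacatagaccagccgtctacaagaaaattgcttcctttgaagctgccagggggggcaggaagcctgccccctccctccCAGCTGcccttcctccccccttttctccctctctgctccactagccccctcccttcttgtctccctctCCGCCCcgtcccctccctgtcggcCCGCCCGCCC
Aspn, chr13:49544193-49544442: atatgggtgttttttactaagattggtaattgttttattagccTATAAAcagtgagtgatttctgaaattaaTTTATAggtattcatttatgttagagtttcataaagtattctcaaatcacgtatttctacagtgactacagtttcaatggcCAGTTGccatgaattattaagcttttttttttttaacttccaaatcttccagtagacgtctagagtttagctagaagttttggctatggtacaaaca
Omd, chr13:49582212-49582461: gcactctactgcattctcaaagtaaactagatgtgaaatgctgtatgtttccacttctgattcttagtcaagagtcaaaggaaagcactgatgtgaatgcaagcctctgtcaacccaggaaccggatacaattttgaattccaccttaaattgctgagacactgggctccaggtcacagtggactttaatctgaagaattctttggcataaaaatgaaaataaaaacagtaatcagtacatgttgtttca
Ogn, chr13:49607765-49608014: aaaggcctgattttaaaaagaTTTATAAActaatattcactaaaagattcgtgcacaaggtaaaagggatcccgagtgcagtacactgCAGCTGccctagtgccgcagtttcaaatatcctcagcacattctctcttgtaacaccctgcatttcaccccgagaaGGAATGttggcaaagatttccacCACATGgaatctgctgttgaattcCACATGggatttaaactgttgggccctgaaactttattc

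Base composition differed along with the motifs. The Bgn window was 64.4% G or C, against 30.0% for Aspn, 38.4% for Omd and 42.0% for Ogn, and 52.4% in the median of 32851 promoter windows. CCGCCC, held by 32.7% of the windows, occurred 3 times in that of Bgn, the last of them overlapping, and in none of the other 3. TATAAA, held by 12.4%, occurred between 173 and 207 bases before the start in Aspn and between 222 and 229 in Ogn, where matches on the 2 strands overlap. GGAATG (12.6% of windows) was matched in Ogn, and CANNTG (66.2%) in Bgn, Aspn and Ogn. None of the 4 windows shown held a CArG box (1.47% of all windows) or TGANTCA (6.75%), and that of Omd held none of the 6 motifs. The table's gene starts lie 304 bases after the RefSeq start for Omd and 56 for Ogn, so their windows may not be the start used in these cells. A match of letters is a description and no measured binding site.

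Bgn was by far the most abundant of the family. It had 166639, 105572, 158516 and 175267 reads in libraries 1 to 4, or log2 values of 12.48, 11.83, 12.82 and 12.54. The values stayed within a 1.97-fold range, lowest in library 2. With a mean of 12.42 ± 0.42, Bgn ranked 37th of all 25965 genes by reads. The whole family took 0.357%, 0.212%, 0.445% and 0.343% of the reads on genes, and Bgn alone made up 82.9% to 90.0% of the family's reads.

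Dcn, the other dermatan sulfate proteoglycan of class I, was far lower and differed widely. Its log2 values were 6.53, 5.35, 3.54 and 2.40 in libraries 1 to 4, from 2682, 1181, 255 and 155 reads. They covered a 17.5-fold range, highest in library 1 and lowest in library 4, with a mean of 4.45 ± 1.84. Aspn, a class I protein that carries no such chain in its typical form and binds collagen, gave 4.34, 1.15, 4.37 and 5.04, a mean of 3.73 ± 1.75. Its low value was that of library 2, with 64 reads against 454 to 970 in the others.

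Among the class II genes, Fmod and Prelp were abundant. Fmod, whose protein guides collagen fibril assembly, gave 8.15, 6.91, 8.74 and 7.96 (7.94 ± 0.77), lowest in library 2. Prelp, encoding a protein that links collagen to the basement membrane proteoglycan perlecan, gave 9.28, 7.74, 7.54 and 7.10 (7.92 ± 0.95), with 18125 reads in library 1 and 4039 to 6179 in the others. Their means were alike, but Prelp was the higher gene in libraries 1 and 2 and Fmod in libraries 3 and 4. An overlapping gene model on the opposite strand, Gm15851, had 551, 242, 169 and 118 reads, or 2.92% to 4.13% of those of Prelp, and reads of the shared stretch cannot be told apart where the counting strand is not stated.

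Lum, Omd and Kera were low. Lum, which shapes fibrils in cornea, skin and tendon, had 342, 111, 24 and 11 reads, or log2 values of 3.56, 1.94, 0.13 and -1.42, in the same order of libraries as Dcn. The 11 reads of library 4 have an exact Poisson 95% interval of 5.49 to 19.7. All such intervals cover counting error only, and they are too narrow if fragments were counted more than once. Omd, known from bone matrix, had 176, 16, 300 and 223 reads, or 2.60, -0.85, 3.77 and 2.92, so that library 2 was again low (interval 9.15 to 26.0 reads). Kera, the keratan sulfate proteoglycan of the cornea, had 0 reads in every library, a count that is compatible with up to 3 reads per library.

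The class III genes differed widely in level. Ogn, a matrix protein of vessel wall, bone and connective tissue, had 4108, 946, 6398 and 6797 reads, or log2 values of 7.14, 5.03, 8.18 and 7.85, a mean of 7.05 ± 1.42. Library 2 was 8.89-fold below library 3. Epyc, known from growth-plate cartilage, had 7 and 5 reads in libraries 1 and 2 (95% intervals 2.81 to 14.4 and 1.62 to 11.7) and none in libraries 3 and 4.

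**Figure D2:**
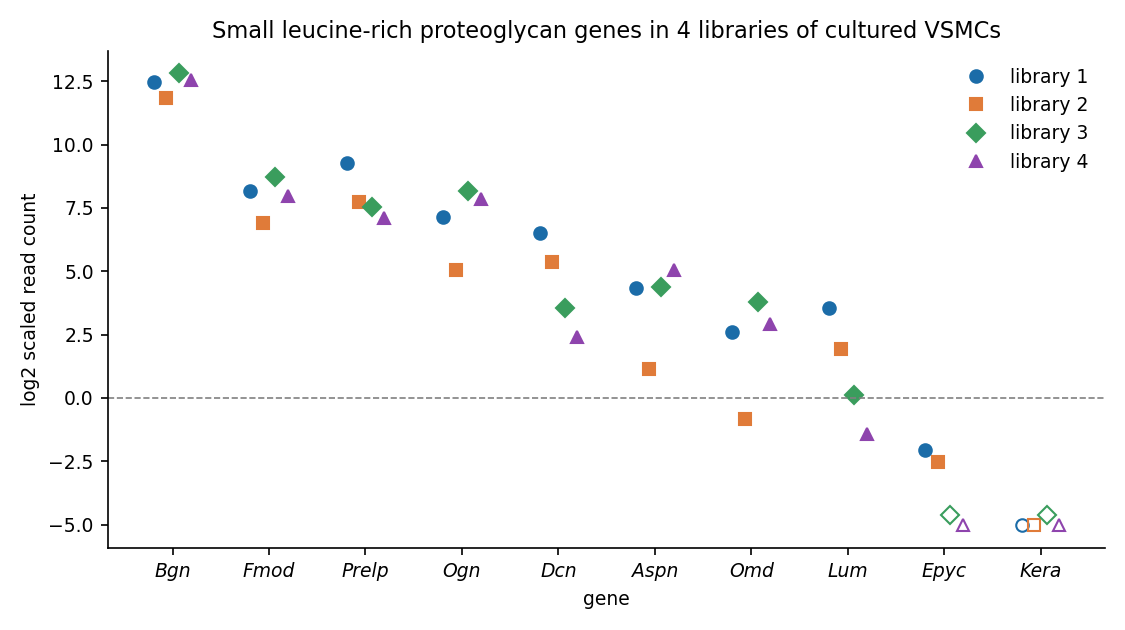
Log2 scaled read count (y axis) of each gene (x axis) in libraries 1 to 4, with open symbols at the deposited floor for no reads and a dashed line at the detection threshold. Bgn lies between 11.83 and 12.82, while Dcn, Aspn, Omd and Lum each spread over several log2 units.

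Of the 10 genes, 6 were detected (Bgn, Fmod, Prelp, Ogn, Dcn and Aspn), against 47.4% of all 25965 genes. Omd and Lum missed the threshold in 1 library each, and Kera and Epyc in all 4. With the threshold passed in 1 or more libraries, 8 of the 10 genes were detected, against 54.6% of all genes.

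Levels of different genes were compared as log2 scaled reads per kb of exon (union of exons in GENCODE M21). Bgn led at 9.81 ± 0.42, followed by Fmod at 6.21 ± 0.77, Prelp at 6.06 ± 0.95 and Ogn at 5.69 ± 1.42. Below them came Aspn (2.49 ± 1.75), Dcn (1.91 ± 1.84), Omd (0.94 ± 2.04) and Lum (-0.24 ± 2.16), and Epyc and Kera came last. All pairs of the 8 genes with reads in every library were compared within libraries, 28 differences on this scale, of which 21 pointed the same way in every library. Those 21 reached the lowest p-value open to 4 libraries in a two-sided exact permutation test by sign flips, 2 of 16 sign arrangements (adjusted p = 0.167 over 28, Benjamini-Hochberg), so no difference could pass 0.05.

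The top and the middle of the order were separated, and the neighbours within them were not. Bgn exceeded Fmod, the next gene, by 3.60 ± 0.36 log2 units per kb, in 4 of 4 libraries. Fmod minus Prelp was 0.15 ± 1.18 (higher in 2 of 4 libraries, exact p = 0.875) and Prelp minus Ogn 0.37 ± 1.82 (2 of 4, exact p = 0.75). Ogn exceeded Aspn by 3.20 ± 0.61 per kb in 4 of 4 libraries. Aspn minus Dcn was 0.58 ± 3.06 (2 of 4, exact p = 0.75), Dcn minus Omd 0.97 ± 3.28 (2 of 4, exact p = 0.625) and Omd minus Lum 1.18 ± 3.48 (2 of 4, exact p = 0.5), so these neighbours had no common order. Among the same 4 genes, Aspn exceeded Omd by 1.55 ± 0.70 and Dcn exceeded Lum by 2.15 ± 0.35 per kb in 4 of 4 libraries. In GENCODE M21 the exon union of Bgn and Dcn is longer than their longest protein-coding transcripts (6099 against 2419 bases, and 5838 against 1758), and per kb of those transcripts Bgn averaged 11.14 and Dcn 3.64, above Aspn at 2.51.

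Of 9 differences within classes and clusters, 7 pointed the same way in every library. Among them, Lum minus Kera had no Kera reads in 4 libraries, and Ogn minus Epyc no Epyc reads in 2. There the sign was fixed by the floor for genes without reads, and both differences count in the adjusted p-values. Bgn exceeded Dcn by 7.90 ± 2.06 log2 units per kb, with 5.89, 6.42, 9.22 and 10.08 in libraries 1 to 4 (adjusted p = 0.161 over 9, exact two-sided sign-flip permutation). The difference was smallest in library 1, where Dcn was highest. Ogn exceeded Omd by 4.75 ± 0.66, Fmod exceeded Lum by 6.45 ± 2.46, and Lum minus Dcn was -2.15 ± 0.35, each pointing the same way in every library, with the same adjusted p. Against 3 reads for genes without reads, Lum was at least 106-, 34.5-, 7.45- and 3.42-fold higher per kb than Kera in libraries 1 to 4. Ogn was 586- and 189-fold higher per kb than Epyc in libraries 1 and 2, where Epyc had 7 and 5 reads, and at least 2129- and 2261-fold higher in libraries 3 and 4, where it had none.

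**Figure D3:**
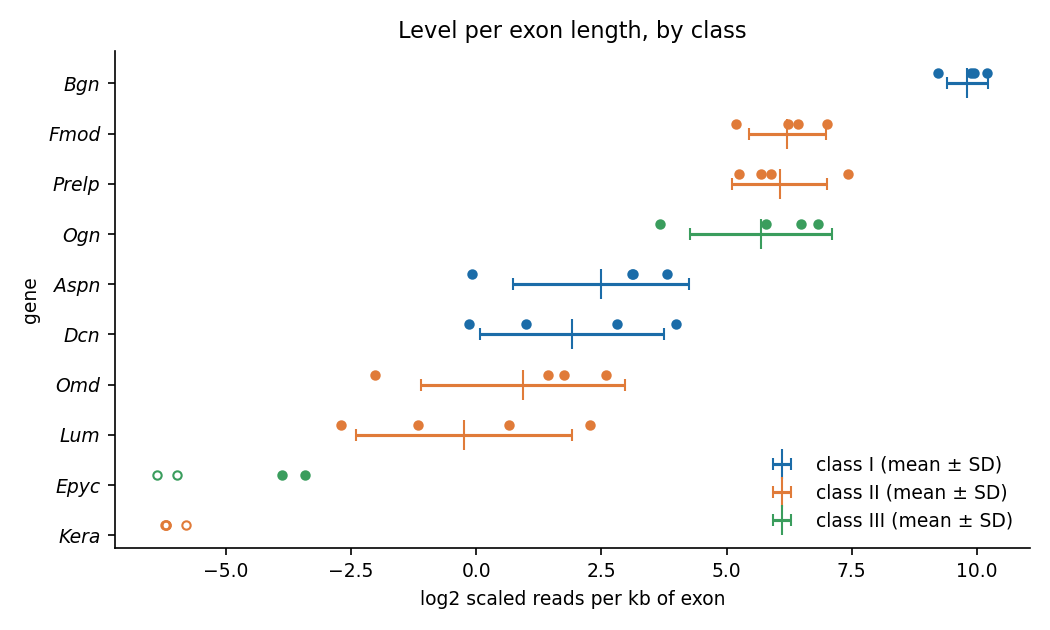
Log2 scaled reads per kb of exon (x axis) for each gene (y axis), coloured by class, with 1 point per library, open points for no reads, and mean ± SD bars (n = 4) for genes with reads in every library. Bgn stands apart at 9.81, and Fmod, Prelp and Ogn overlap between 3.67 and 7.43.

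The spread between libraries was wide for most of the family. Of the 6 detected genes 5 had an SD above 0.5 log2 units, the exception being Bgn at 0.42, against 40.5% of the 12306 detected genes. An SD as large as that of Dcn (1.84) was reached by 0.423% of detected genes, and for Aspn (1.75) and Ogn (1.42) the shares were 0.553% and 1.45%. For Prelp (0.95) and Fmod (0.77) they were 7.07% and 14.9%, and for Bgn 52.5%. With median-ratio size factors the SD of Bgn was 0.60, so that all 6 passed 0.5, against 30.8% of the genes detected under that scaling. Single libraries carried several of these values: without library 2 the SD was 0.40 for Aspn, 0.53 for Ogn and 0.41 for Fmod, and without library 1 it was 0.33 for Prelp. The SD of Dcn stayed at 1.49 or more whichever library was left out.

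**Figure D4:**
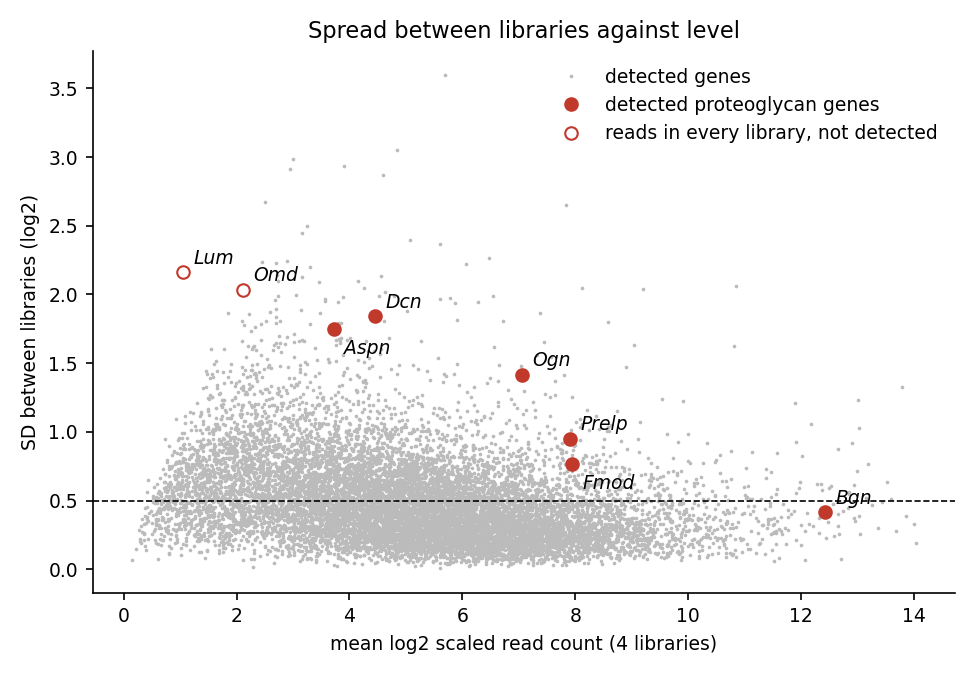
SD between the 4 libraries (y axis, log2) against mean log2 scaled read count (x axis) for 12306 detected genes (grey) and the small leucine-rich proteoglycans (red, open where the threshold was missed in a library), with a dashed line at 0.5. Dcn, Aspn and Ogn lie near the upper edge of the cloud and Bgn at 0.42 lies below the line.

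Dcn and Lum on chromosome 10 varied in parallel over the libraries, where Kera and Epyc had too few reads to compare. The 3 genes on chromosome 13 were all lowest in library 2. Prelp and Fmod on chromosome 1 did not vary in parallel: the SD of their difference (1.18) exceeded those of Prelp (0.95) and Fmod (0.77). Lum minus Dcn, without division by length, had an SD of 0.35 between libraries, although the genes had SDs of 2.16 and 1.84. On chromosome 13 the differences between Aspn, Omd and Ogn had SDs of 0.61 to 0.70, against 1.42 to 2.04 for the genes. Without library 2, where Omd had 16 reads, the SDs of Aspn, Omd and Ogn were 0.40, 0.60 and 0.53. The likeness of these genes therefore rests on library 2. For comparison, each detected gene with an SD above 1 was paired with the next such gene on its chromosome, skipping all genes between. These 693 pairs gave a median SD of the difference of 1.05. They need not lie close together, so they are no measure for adjacent genes. The 2 clusters differed from each other: Dcn minus Ogn had an SD of 2.88 and Lum minus Omd of 3.48. Prelp and Fmod, in 1 cluster, gave 1.18, while Fmod and Bgn, on different chromosomes, gave 0.36. All members of a library share its depth and cells, and with 4 libraries these values are a description.

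Ecm2, a related leucine-rich repeat gene next to this cluster (chromosome 13, 49504810 to 49532789), gave 3.10, 1.95, 3.62 and 3.70, lowest in library 2. Cenpp, a centromere protein gene on the opposite strand whose span covers Aspn, Omd and Ogn, had 2.62, 2.53, 1.18 and 2.12, lowest in library 3. Its 179, 167, 50 and 128 reads were 0.781% to 17.7% of those of Ogn, but 11.0% to 260.9% of those of Aspn and 16.7% to 1044% of those of Omd, with the highest shares in library 2, and reads of overlapping exons cannot be told apart where the counting strand is not stated.

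**Figure D5:**
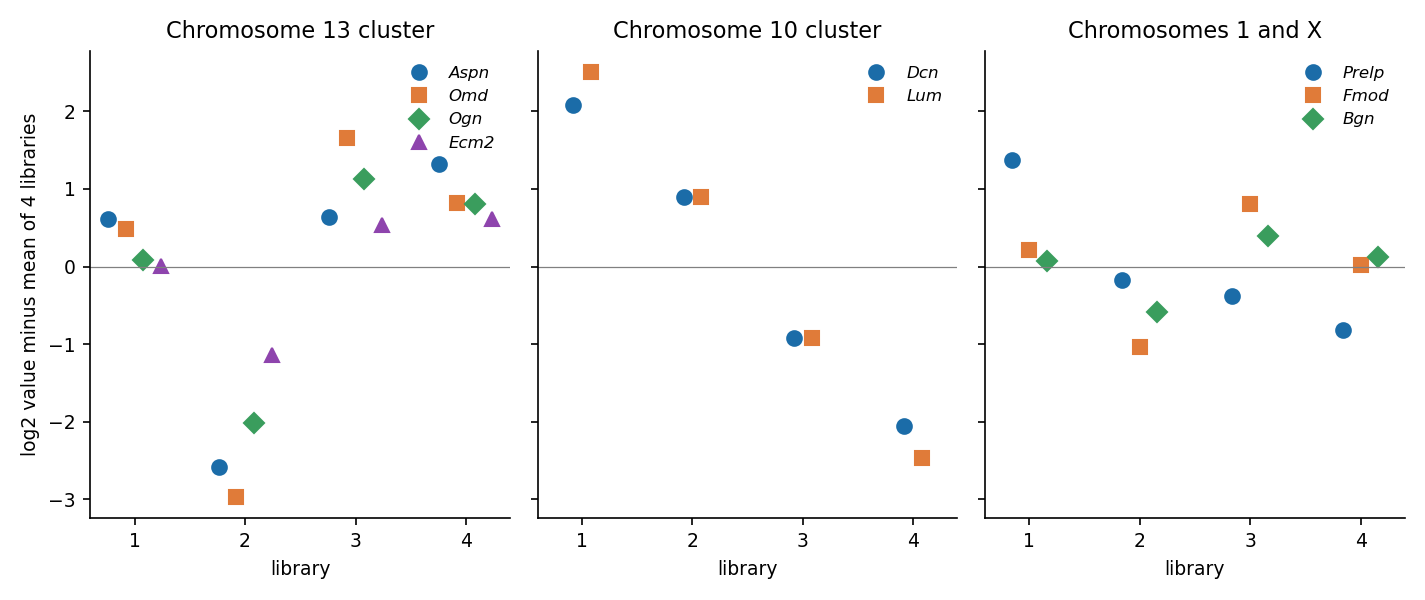
Deviation of each gene's log2 value from its own mean over 4 libraries (y axis) by library (x axis) for the genes on chromosome 13 with Ecm2, for Dcn and Lum on chromosome 10, and for Prelp, Fmod and Bgn. The chromosome 13 genes are low in library 2, and Dcn and Lum run from highest in library 1 to lowest in library 4.

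Other genes with like patterns were ranked by the root mean square difference of deviations over the 4 libraries among detected genes with a mean log2 value of at least 1. For Dcn the closest of 10729 genes were Svep1, a matrix adhesion protein gene (0.227), Lyz2, a lysozyme gene (0.241), and Col28a1, a collagen gene (0.313), and none lay within 0.2. For Ogn they were the growth factor receptor gene Fgfr3 (0.201), the netrin gene Ntn4 (0.262) and the connexin gene Gja3 (0.276), and for Aspn they were the lipoprotein receptor gene Vldlr (0.336), the collagen gene Col8a2 (0.429) and Fgfr3 (0.450), again with none within 0.2. Less unusual patterns had more companions: 29 genes lay within 0.2 of Prelp, led by Phf8 (0.0732), Slc7a2 (0.0751) and Plscr2 (0.0931). For Fmod there were 11, led by Hipk4 (0.139), Smpd3 (0.144) and Rapgefl1 (0.147). On the same measure Lum lay 0.299 from Dcn, and Aspn and Omd lay 0.524 and 0.576 from Ogn. Svep1 and Lyz2 were thus closer to Dcn than Lum was. Fgfr3, Ntn4 and Gja3 were closer to Ogn than its cluster neighbours were. Lum and Omd were not among the genes ranked, as they missed detection.

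Smooth muscle markers and some members shared a low value in library 2. Bgn, Fmod, Aspn and Ogn, 4 of the 6 detected members, were lowest in library 2, against 13.2% of detected genes. With median-ratio size factors the count was 4 and the background 20.2%. Smooth muscle markers were lowest in library 2 for 7 of 8 genes under both scalings, and their summed level was 11.83 there and 12.96 to 14.00 in the other libraries. In library 4, where Dcn, Lum and Prelp were lowest, 7 of 8 of these markers were highest. The share of all detected genes highest in library 4 is not given here, so whether this count is unusual was not tested. Acta2, smooth muscle actin, gave 12.04, 10.76, 12.77 and 13.16, and Myh11, smooth muscle myosin heavy chain, 7.12, 5.33, 8.08 and 9.24. Chondrocyte markers were lowest in library 2 for 6 of 9 genes, with a summed level of 13.003 there and 13.90 to 14.40 in the others, and none of the 9 was without reads in all libraries. In bulk RNA fewer cells of a type and less RNA per cell cannot be told apart, and the part of these markers in the members' values was not tested.

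Dcn and Lum, like Prelp, were highest in library 1 and lowest in library 4. Library 1 was the highest for 2 of the 6 detected members, against 53.6% of detected genes, and for 2 of 6 against 31.0% with size factors. Adventitial fibroblast markers had medians of 6.79, 6.87, 4.94 and 4.51, and none of the 10 was without reads. Their summed level moved little, from 11.76 to 12.06, and was carried by Gsn, an actin-severing protein gene at 11.60 ± 0.08. Dpt, encoding the decorin-binding dermatopontin, gave 7.15, 7.02, 2.32 and 1.92, Serpinf1 8.53, 8.28, 4.86 and 4.18, and Pdgfra 7.17, 6.77, 4.92 and 4.83. Scara5 (4.45, 1.10, 5.53 and 5.54) and Cd34 (6.44, 6.96, 8.45 and 8.31) of the same list had other orders. Leukocyte markers had summed levels of 4.81, 4.87, 3.40 and 3.57, with no gene of the list at 0 in all libraries. Their part in the values of Dcn and Lum was not tested.

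Most genes listed for chondroitin and dermatan sulfate chains were detected. Of 22 genes for the linkage region and for chondroitin or dermatan sulfate, 21 were detected and 9 of them had an SD above 0.5, and the median over all 22 was 5.22 ± 0.17, beside 0.13 for all genes and 5.09 for detected genes. Chpf, a chondroitin polymerizing factor, averaged 10.19 ± 0.10, Chpf2 8.23 ± 0.26, the glucuronyltransferase gene of the linkage region B3gat3 7.71 ± 0.34 and the sulfotransferase gene Chst12 7.71 ± 0.11. Xylt1 and Xylt2, whose enzymes start the chain on the core protein, averaged 3.19 ± 0.83 and 6.85 ± 0.37. Of 8 genes for keratan sulfate, 5 were detected, and the median over all 8 was 3.60 ± 0.40. The galactosyltransferase gene B4galt1, which also serves other glycans, averaged 7.85 ± 0.48, and the sulfotransferase genes Chst1 and Chst2 averaged 4.90 ± 1.13 and 3.71 ± 0.55. The sulfotransferase gene Chst4 had no reads in any library.

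The collagens that the core proteins bind were the highest list, at a median of 11.15 ± 0.18 and 14 of 14 detected. Col1a1 averaged 14.01 ± 0.33, Col2a1 13.60 ± 0.51, Col5a2 13.26 ± 0.47, Col1a2 13.15 ± 0.52 and Col3a1 11.38 ± 0.66. Of 11 processing and turnover genes 8 were detected, and the median over all 11 was 5.66 ± 1.56. Bmp1, the protease gene whose product trims the biglycan propeptide, averaged 8.80 ± 0.40, and the related protease gene Tll1 gave 7.45, 7.55, 3.69 and 4.77. Pcolce, the procollagen C-endopeptidase enhancer gene, averaged 9.65 ± 0.10. Mmp14 averaged 10.64 ± 0.19 and Mmp2 10.60 ± 0.31. Of 18 ligands and receptors known to bind members, 16 were detected and 11 had an SD above 0.5, and the median over all 18 was 6.05 ± 0.46. The TGF-beta genes Tgfb1, Tgfb2 and Tgfb3 averaged 5.87 ± 0.52, 7.01 ± 0.74 and 7.98 ± 0.74, the matrix growth factor gene Ctgf 12.38 ± 0.58, the endocytic receptor gene Lrp1 10.48 ± 0.78, and the biglycan receptor genes Tlr2 and Tlr4 3.98 ± 0.54 and 4.36 ± 0.39. Mstn, encoding myostatin, had no reads.

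Other leucine-rich proteoglycan genes were led by Podn, encoding podocan, at 7.84 ± 0.66 and Tsku, encoding tsukushi, at 7.30 ± 0.51. Of these 9 genes 5 were detected, and the median over all 9 was 1.08 ± 0.33. Among 10 large and other matrix proteoglycans 6 were detected, and the median over all 10 was 1.13 ± 0.10. Hspg2, encoding perlecan, averaged 11.02 ± 0.52, the cartilage proteoglycan gene Acan 5.56 ± 1.54, and Vcan, the versican gene of the arterial intima and media, 3.96 ± 1.67 with values of 4.92, 5.82, 2.41 and 2.70.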

How the data were processed

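Cultured aortic smooth muscle cells of 1 group gave 4 libraries, made with a stranded poly(A) kit from RNA with integrity numbers of 7.8 to 9, per the labels' protocols. The submitters' processing notes name the build GRCm38 and the tools TopHat, cutadapt and Trim Galore. How reads were counted, with which annotation and strand, is not given in the sources used here. The authors deposited log2 values per gene, which from the values are reads times a constant of the library, not divided by length, with genes without reads at 0.9 read. Reads were recovered as whole numbers (within 0.05 read for 100% of genes under 2000 reads) and were 1.83 to 1.94 times the total that each constant implies, so a fragment may count more than once. Intervals and the floor of 3 reads cover counting error only, and they treat each recovered read as an independent count. Pairs of libraries differed beyond sampling noise (chi-square per degree of freedom of at least 115).

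Exon lengths came from GENCODE M21, matched by symbol and position for 87.0% of genes and all 10 members. Members, 14 lists (136 genes), 9 differences and thresholds were chosen with earlier results of these data known. Named list genes were among the first 3 listed or the 4 highest of a list, Tlr2, Tlr4, Mstn, Scara5 and Col9a1 were named after their values were seen, and Cenpp and Gm15851 because they overlap members. Each member with an SD above 0.5 had its 3 most alike genes named. Differences within libraries were tested by exact two-sided permutation of their signs. Scripts ran in Python 3.11.15 with scipy 1.17.1 and numpy 2.4.6, and figures used matplotlib 3.10.9.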

Additional observations from a re-analysis of the deposited data

How the results depend on the processing

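No paired analysis was possible because all libraries belong to 1 group and their numbers only name them. The count of detected members was 6, and 6 to 8 under other thresholds, size factors and leaving out each library. The count of members with an SD above 0.5 was 5, and 3 with an SD above 1, 8 with no filter on low values and 4 to 6 when a library was left out. Dcn minus Aspn per kb turned from -0.58 to 0.73 without division by length, to 1.13 with the longest protein-coding transcript length (chosen after seeing the data), and spanned -1.74 to 0.54 when a library was left out, the highest without library 4. Prelp minus Fmod per kb (-0.15) spanned -0.54 to 0.24 when a library was left out, 0.24 without library 3 and 0.13 without library 4. The cause was not tested beyond these settings, and both differences had mixed signs in the libraries. The other 7 differences kept their direction under all alternatives run. The lengths used were the longest transcript, the longest protein-coding transcript and no division. Other settings were genes without reads at 3 reads, a pseudocount of 1, size factors and each library left out. Size factors cancel within a library, and leaving out a library cannot reverse values of the same sign, so neither could change a direction. Setting genes without reads to 3 reads acted only on the differences with Epyc or Kera. Without 1 library, Bgn minus Dcn spanned 7.18 to 8.57, Lum minus Dcn -2.29 to -2.01 and Fmod minus Lum 5.63 to 7.22. Ogn minus Omd spanned 4.44 to 4.93 and Ogn minus Aspn 3.02 to 3.38. With genes without reads at 3 reads, Ogn minus Epyc was 9.74 and Lum minus Kera 4.13. List means lay beyond 1 SD of the list median for 5 of 14 lists. Depth limits Epyc, Kera, Lum and Omd, whose low values rest on 0 to 24 reads in a library.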

Other observations

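Genes of skeletal tissues gave a mixed picture. Of the chondrocyte markers 7 of 9 were detected, and the median over all 9 was 4.49 ± 1.60 (n = 4). Among them were Col2a1 at 13.60 ± 0.51 and Comp, a cartilage matrix gene, at 9.64, 9.21, 12.38 and 12.04 in libraries 1 to 4. Sox9 averaged 6.20 ± 0.41, and Col9a1 gave 4.17, 1.69, 6.12 and 6.25. Acan, at 6.62, 3.46, 5.37 and 6.79, had another order of libraries. Tenocyte markers had 2 of 5 detected, Scx, the tendon transcription factor gene, at 5.13 ± 0.70 and the early response gene Egr1 at 6.74 ± 0.47, while Tnmd and Mkx reached 1.62 and 2.19 at most. Of the osteoblast markers 1 of 5 was detected, Runx2 at 3.60 ± 0.49, and the median over all 5 was -2.63 ± 1.89. None of the 32 values checked over the libraries (members, differences and summed lists) held a library farther from the others than Dixon's 95% limit.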
